A study of Homo sapiens with 7 samples.

Results

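MYCN occupancy was examined at 9 genes that mark the mesenchymal state of neuroblastoma cells: the transcription factors PRRX1, SNAI2 and TWIST1, the Hippo pathway coactivators YAP1 and WWTR1, the structural and adhesion genes VIM, FN1 and CD44, and the receptor NOTCH2. Each locus was a fixed window on the hg19 build, the gene with about 10 kb on either side, and its members were the MYCN summits inside that window. A summit is the position of locally highest ChIP signal in a called interval. The 9 windows covered 941 kb and held 29 of the 64657 summits in the list.

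The cells were Kelly, an established human neuroblastoma line with amplified MYCN. Those that respond to the ALK inhibitor TAE684 had been given DMSO, and resistant ones TAE684 at 1 µM, in both cases for 48 h. The labels give 2 MYCN ChIP samples and 1 input sample for the sensitive cells, and 2 of each for the resistant cells. Only 1 peak list was made from the pair of ChIP samples, so replicate error cannot be given. The resistant list was the same as the sensitive list in 64657 of 64657 rows. Every peak name in both, 64657 of 64657, is that of the sensitive cells. The values are therefore given under that name, and the states were not compared.

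Neuroblastoma cells can occupy an adrenergic state, committed to the sympathetic lineage, or a mesenchymal state that resembles neural crest precursors. PRRX1, SNAI2 and TWIST1 are among the regulators linked to the mesenchymal state, which goes with motility, matrix production, YAP and TAZ activity and NOTCH signalling. MYCN is a basic helix-loop-helix protein that pairs with MAX and binds E-boxes, above all the letters CACGTG, mostly near promoters. A peak records occupancy and does not measure whether the gene is expressed.

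Promoter letters are shown for the 5 genes that had a summit within 2 kb of the gene start and a promoter in the RefSeq table. The sequences are the 250 bases before the listed start, on GRCh38.p14, so they were not placed against the hg19 summits. They were searched on both strands for CACGTG as well as CATGTG, for CACGCG, and for the general E-box CANNTG, of which the first and second are special cases. Capitals mark a match.
YAP1, chr11:102110197-102110446, plus strand: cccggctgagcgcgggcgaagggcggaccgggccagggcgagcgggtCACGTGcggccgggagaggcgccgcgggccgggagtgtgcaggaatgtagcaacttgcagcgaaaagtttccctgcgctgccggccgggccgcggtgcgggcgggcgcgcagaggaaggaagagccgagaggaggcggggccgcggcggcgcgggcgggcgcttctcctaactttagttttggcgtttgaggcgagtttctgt
VIM, chr10:17227991-17228240, plus strand: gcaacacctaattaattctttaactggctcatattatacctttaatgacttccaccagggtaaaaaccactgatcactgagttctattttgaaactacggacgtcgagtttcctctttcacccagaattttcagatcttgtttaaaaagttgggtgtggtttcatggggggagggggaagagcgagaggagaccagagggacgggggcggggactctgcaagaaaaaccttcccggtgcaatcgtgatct
FN1, chr2:215436069-215436318, minus strand: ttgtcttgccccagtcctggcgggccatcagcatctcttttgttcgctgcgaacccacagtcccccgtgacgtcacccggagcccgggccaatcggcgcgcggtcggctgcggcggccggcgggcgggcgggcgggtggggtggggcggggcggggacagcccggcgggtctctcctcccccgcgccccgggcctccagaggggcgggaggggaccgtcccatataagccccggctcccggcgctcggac
CD44, chr11:35138921-35139170, plus strand: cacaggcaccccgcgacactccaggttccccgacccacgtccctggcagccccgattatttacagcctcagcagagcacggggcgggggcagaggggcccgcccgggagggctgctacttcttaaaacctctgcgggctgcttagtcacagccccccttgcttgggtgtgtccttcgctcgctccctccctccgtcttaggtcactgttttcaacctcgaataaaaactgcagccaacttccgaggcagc
NOTCH2, chr1:120069663-120069912, minus strand: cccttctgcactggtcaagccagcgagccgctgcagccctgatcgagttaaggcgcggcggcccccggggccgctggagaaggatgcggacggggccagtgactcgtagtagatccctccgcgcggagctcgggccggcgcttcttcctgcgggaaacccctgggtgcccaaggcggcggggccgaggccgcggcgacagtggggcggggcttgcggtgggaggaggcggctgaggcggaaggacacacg
Of these, YAP1 held 1 CACGTG, which began 203 bases before the start. The other 4 held none of the searched letters. Among all 35116 RefSeq promoters, 6.34% held CACGTG, 9.42% CATGTG, 9.72% CACGCG and 61.8% any CANNTG in the same stretch. The PRRX1 promoter held no match. WWTR1 has 2 listed promoters, of which one held CATGTG and CAGATG, beginning 45 and 34 bases before the start, and the other no match. A match describes letters and does not show a bound site. By the starts implied by the windows, the near-start summits of VIM lay 0.73 to 1.59 kb after the start. Those of CD44 lay 0.95 and 1.19 kb after it, and 1 of FN1 lay 0.57 kb after it. The letters under these summits were not searched, so the lack of a match does not describe them.

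MYCN summits were found at all 9 loci, but their number ran from 1 at YAP1 to 7 at TWIST1. The windows held 30.8 summits per Mb, against 21.3 per Mb over chromosomes 1 to 22 and X, a ratio of 1.45 (95% Poisson interval 0.969 to 2.08). The interval covers counting error only and includes 1. TWIST1 and VIM held 13 of the 29 summits in 52 kb, and the other 7 loci held 16 in 889 kb.

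**Figure D1:**
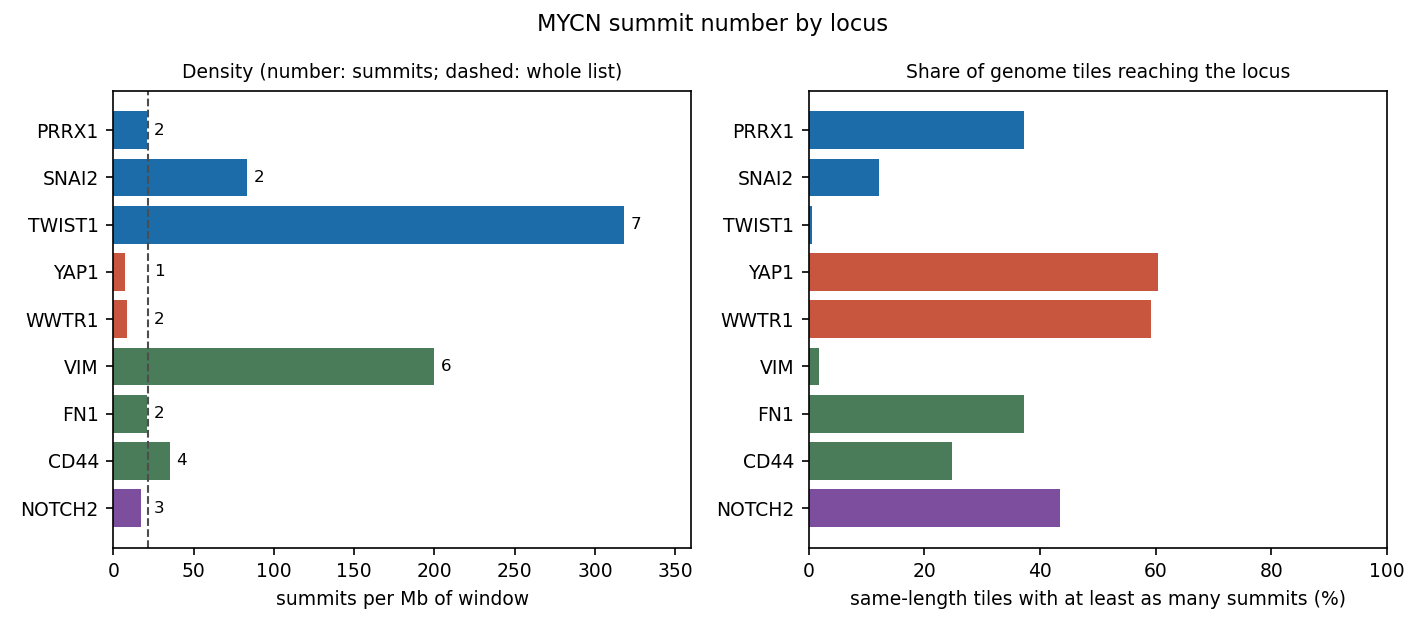
Left, MYCN summits per Mb of window at each locus, with the number of summits beside each bar and the whole list's 21.3 per Mb as a dashed line. Right, the percentage of genome tiles of the same length that held at least as many summits. TWIST1 and VIM have the highest densities, 318 and 200 per Mb, and the Hippo coactivators the lowest.

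The numbers were set beside same-length tiles laid end to end over chromosomes 1 to 22 and X. Tiles include gene-poor and unmappable sequence, whereas each window was placed on a gene. At least 7 summits were found in 0.589% of tiles of the TWIST1 length, and at least 6 in 1.83% of tiles of the VIM length. For SNAI2, 12.1% of tiles held at least 2 summits. The share was 24.8% for the 4 summits of CD44 and 43.4% for the 3 of NOTCH2. It was 37.2% for PRRX1 and 37.3% for FN1, with 2 summits each. For YAP1 it was 60.5% and for WWTR1 59.2%, so most tiles of their length held at least as many summits.

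The strength of the summits was set beside that of the list. Fold enrichment, the authors' ratio of ChIP pileup to local background, had a median of 4.98 over the 29 summits (95% interval of the median 3.41 to 6.25) and of 5.35 over the list. It was at least 10 at 2 of 29 summits, or 6.90% (95% exact interval 0.846 to 22.8), against 12% of the list. It was at least 5 at 14 of 29, or 48.3% (29.4 to 67.5), against 55.8%. A −log10 q of at least 10, where q is the authors' p-value adjusted over the genome, was reached by 16 of 29, or 55.2% (35.7 to 73.6), against 64.2%. Each share was lower than that of the list, but the list's share lay inside the members' interval. These intervals take the 29 summits as independent, although they fell in only 23 called intervals. They describe the counts, and a difference from the list was not tested. The number of ChIP fragments over a summit and the local background, in input fragments, were recovered from its fold enrichment and p-value. The ChIP fragments are given before they are scaled down to the depth of the input. Dividing them by the background therefore does not give the fold enrichment. No summit in the windows had more than 148 ChIP fragments, and 11.2% of the list had at least as many. The list reached 280, but among far more summits.

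**Figure D2:**
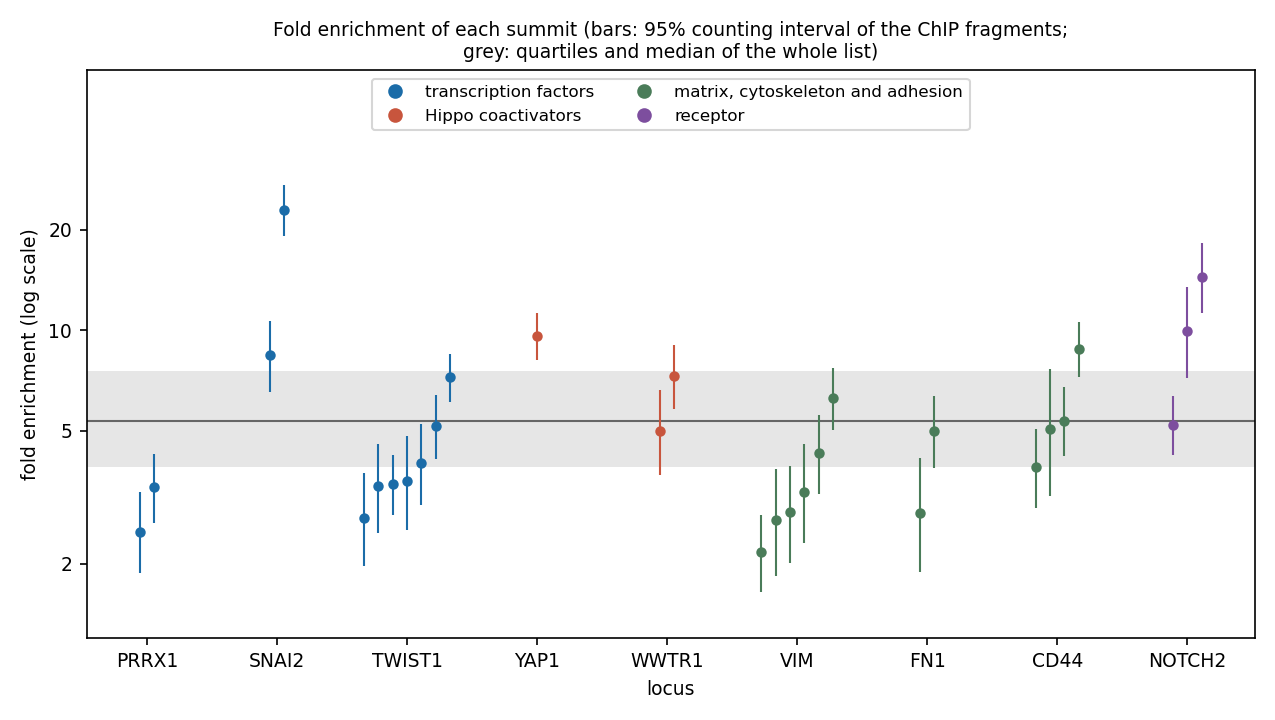
Fold enrichment of each of the 29 summits by locus, on a log scale. Bars are 95% counting intervals of the ChIP fragments with the background held fixed, and the grey band and line are the quartiles (3.90 and 7.54) and median (5.35) of the list; SNAI2 and NOTCH2 hold the only summits above 10.

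Among the transcription factors, SNAI2 had the summit of highest fold enrichment of all 9 loci. SNAI2 encodes SLUG, a zinc-finger repressor of epithelial genes that acts in neural crest migration. Its single interval on chromosome 8 ran from 49834194 to 49834724 and held 2 summits, 266 bp apart. The one at 49834580 reached a fold enrichment of 22.88, with a −log10 q of 86.4, and only 0.399% of the list had as high a fold. It was covered by 129 ChIP fragments (95% Poisson interval 108 to 153) over a background of 2.66 input fragments. The one at 49834314 had a fold enrichment of 8.41 with 64 ChIP fragments over a background of 4.0.

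The SNAI2 rank depended on the measure, because the low background divides the fold. By fold it was in the top 0.399% of the list, but 15.9% of the list had at least 129 ChIP fragments. Both summits lay just outside the gene, 0.31 and 0.58 kb past its higher end as implied by the window. The tables used give no strand for SNAI2 or TWIST1; both genes are known to be transcribed from the minus strand, which would make this the 5′ side. No other summit was found in the SNAI2 window, and the nearest lay 37.1 kb below it and 1466.9 kb above it.

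TWIST1, a basic helix-loop-helix factor that itself binds E-boxes and drives mesenchymal programmes, had many summits of mostly low enrichment. Its 7 summits fell in 6 intervals that together covered 12.1% of the 22-kb window, against 0.647% of the chromosomes for the list. The widest interval, on chromosome 7 from 19155984 to 19157356, spanned 1373 bp across the gene. At its summit at 19157129, within 0.13 kb of the gene's higher end, fold enrichment was 7.23 with 145 ChIP fragments over a background of 12.0. Its other summit, at 19156173, had a fold of 3.45 with 90 fragments over a background of 16.0.

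The window implies a gene of 2 kb against 4.6 kb in RefSeq, so the ends of TWIST1 are less certain than those of most other loci. The remaining TWIST1 summits lay below the implied gene. A group of 4, at 19146130, 19146545, 19147179 and 19147598, was spread over 1.47 kb. Their fold enrichments were 3.99, 3.41, 2.75 and 5.17, and their −log10 q 9.1, 5.8, 3.2 and 18.6. A single summit at 19152223 had a fold of 3.53. The group is 4 separate calls in a short stretch and may not be 4 sites. Of the 7 summits, 6 were under the list's median fold. Outside the window the nearest summits were 258.5 and 581.7 kb away.

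PRRX1, a homeobox factor placed at the head of the mesenchymal circuit, had the lowest best fold of the 9 loci. Its summit on chromosome 1 at 170640658 was enriched 3.38-fold, with a −log10 q of 9.0, and lay 7.66 kb inside the gene. The summit at 170630610, 2.39 kb before the start, had a fold of 2.49 and a −log10 q of 3.6. They held 67 and 49 ChIP fragments, both over a background of 12.0, which is 7.47 times the genome-wide mean. At least these folds were found at 84.6% and 97.8% of the list. The remaining 77.3 kb of the window, towards the end of the gene, held no summit.

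**Figure D3:**
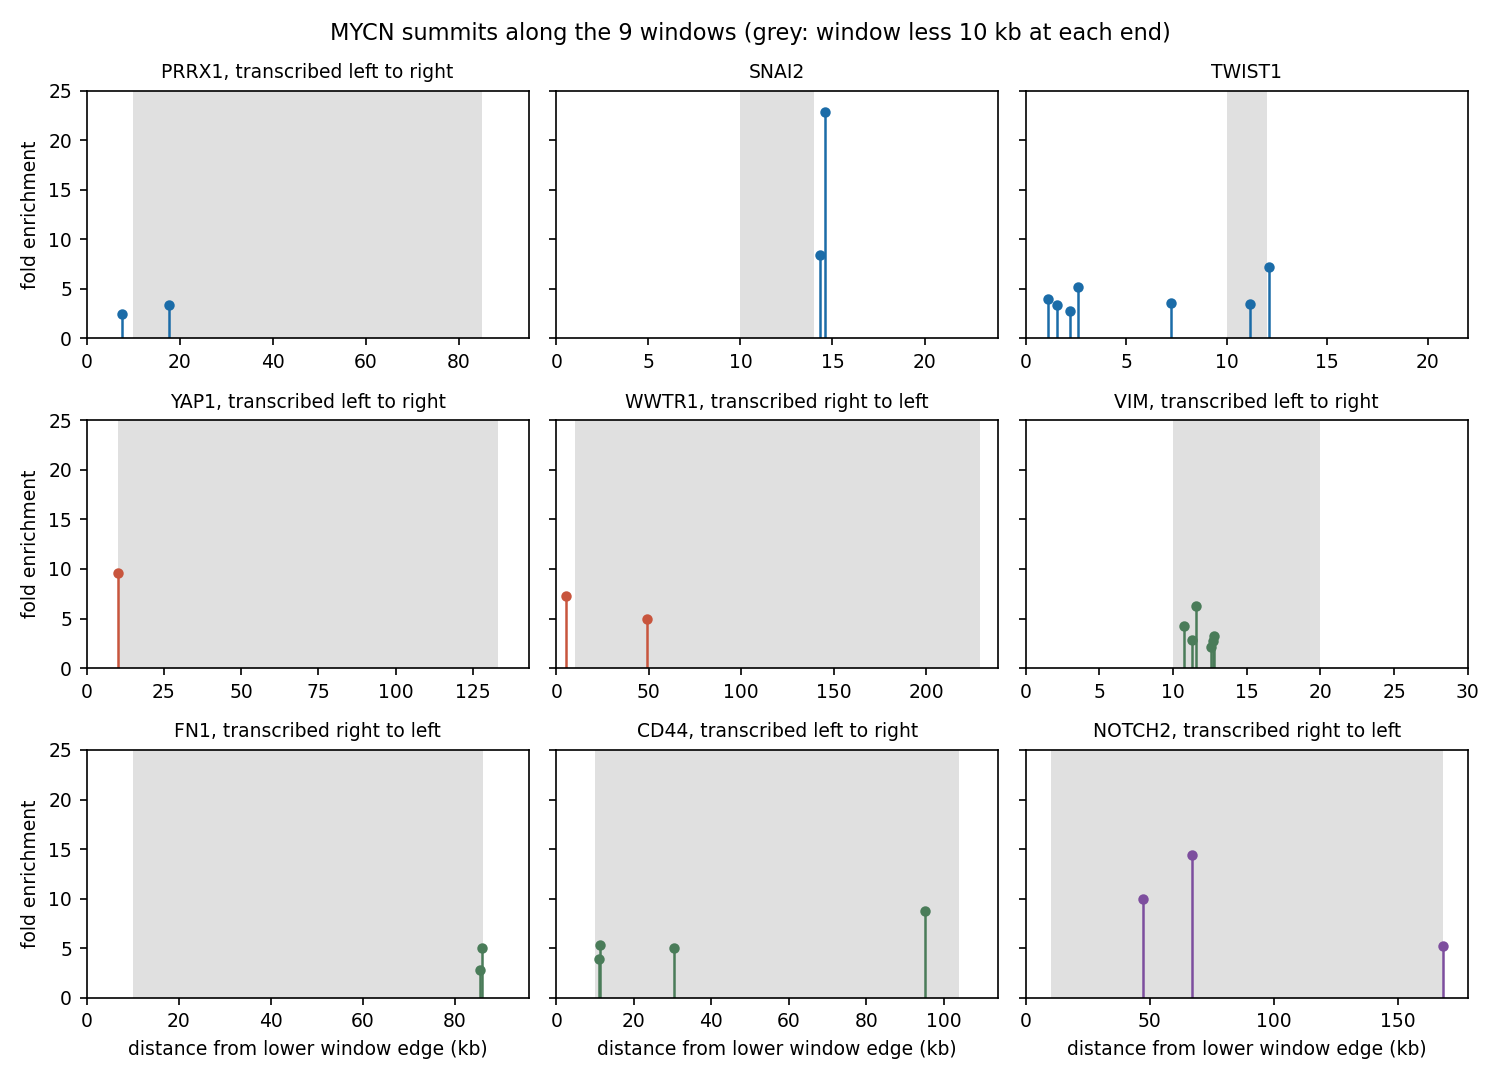
Fold enrichment of each MYCN summit (vertical axis) by its distance in kb from the lower edge of the window (horizontal axis), 1 panel per locus; grey marks the window less 10 kb at each end, which is about the gene. Summits of YAP1 and FN1 lie at the start of the gene, whereas those of WWTR1 and the ones of highest fold at NOTCH2 and CD44 lie far from it.

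At the Hippo coactivators, few summits were found for the length of the windows. YAP1 and WWTR1 (also called TAZ) encode related proteins that enter the nucleus when Hippo kinases are inactive and act with TEAD factors. Together they had 3 summits in 382 kb, or 7.85 per Mb (95% Poisson interval 1.62 to 23), which includes the 21.3 per Mb of the list. YAP1 had 1 summit, on chromosome 11 at 101981096 in an interval from 101980936 to 101981401, 0.10 kb from the gene start. Its fold enrichment was 9.59 and its −log10 q 57.7. Its 148 ChIP fragments (95% Poisson interval 125 to 174) were the most at any of the 29 summits, over a background of 9.0, and 11.2% of the list had at least as many. This is also the gene whose RefSeq promoter held CACGTG. No summit was found in the other 132.9 kb of the window.

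WWTR1 differed from YAP1 in that neither of its summits was near a start. The summit on chromosome 3 at 149230242, with a fold of 7.29 and 78 ChIP fragments, lay 4.76 kb beyond the end of the gene. The summit at 149273889, with a fold of 4.98 and 45 fragments, lay inside the gene, 38.89 kb from that end. The upper 190.1 kb of the window, where the gene starts, held no summit. The fragment intervals of YAP1 (125 to 174) and of the stronger WWTR1 summit (62 to 97) did not overlap. For WWTR1 the window implies a gene of 219 kb against 207.6 kb in RefSeq, so its outermost start is less certain.

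VIM, FN1 and CD44 had summits close to their starts, of modest enrichment. VIM encodes the intermediate filament vimentin, FN1 the matrix protein fibronectin and CD44 a hyaluronan receptor. Over these loci 9 of 12 summits were under the list's median fold. VIM had 6 summits within 2.04 kb on chromosome 10, all inside the gene. Of these, 3 lay within 2 kb of its start. The highest, at 17271587, had a fold of 6.25 and 86 ChIP fragments and lay 1.59 kb after the start. The summits at 17270734 and 17271289 had folds of 4.29 and 2.85.

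The other 3 VIM summits shared an interval from 17272465 to 17272848 and were 123 and 88 bp apart. Their folds were 2.17, 2.70 and 3.29 and their −log10 q 2.7, 2.1 and 4.4. The lowest −log10 q in the list is 2.01, so these were among its weakest calls. Whether summits this close are separate sites was not tested. VIM had 3 intervals when each was counted once.

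FN1 had 2 summits on chromosome 2, both at the gene start. The one at 216300932, 0.07 kb from the start, had a fold of 5.0, a −log10 q of 14.6 and 63 ChIP fragments. The one at 216300433, 0.57 kb into the gene, had a fold of 2.85, a −log10 q of 2.2 and 24 fragments. The 85.4 kb from there to the lower edge of the window, or 89% of it, held none.

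CD44 had 4 summits on chromosome 11, and the strongest was far from the start. At 35160950 and 35161193, 0.95 and 1.19 kb after the start, folds were 3.89 and 5.36 with 53 and 70 ChIP fragments. The summit at 35180460, 20.46 kb into the gene, had a fold of 5.06 from only 19 fragments, over a background equal to the genome-wide mean of 1.61. At 35245097, 85.1 kb into the gene, the fold was 8.78, the −log10 q 40.7 and the fragment number 108 (95% Poisson interval 89 to 130). That interval just exceeded the 55 to 88 of the stronger summit near the start.

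NOTCH2, a receptor whose cleaved intracellular part acts in the nucleus, showed its highest fold enrichment deep inside the gene. On chromosome 1 the summit at 120510806 had a fold of 14.44 and a −log10 q of 37.5, and 3.15% of the list had as high a fold. It lay 101.19 kb after the start. The summit at 120491417, 120.58 kb after the start, had a fold of 9.98 and a −log10 q of 19.2. At the start itself, the summit at 120612222 had a fold of 5.21 and a −log10 q of 22.8.

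The order at NOTCH2 turned when ChIP fragments were compared in place of the fold. The summit at the start held 96 fragments (78 to 117) over a background of 11.0. Those at 120510806 and 120491417 held 66 (51 to 84) and 39 (28 to 53) over backgrounds of 2.0 and 1.61. NOTCH2 was the only locus of the 9 whose summit of highest fold was not the one with most ChIP fragments. NOTCH2 has near-identical partial copies, the NOTCH2NL genes, on the same chromosome. The handling of reads with several matches is not stated in the labels, and the part of this in the values was not tested.

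**Figure D4:**
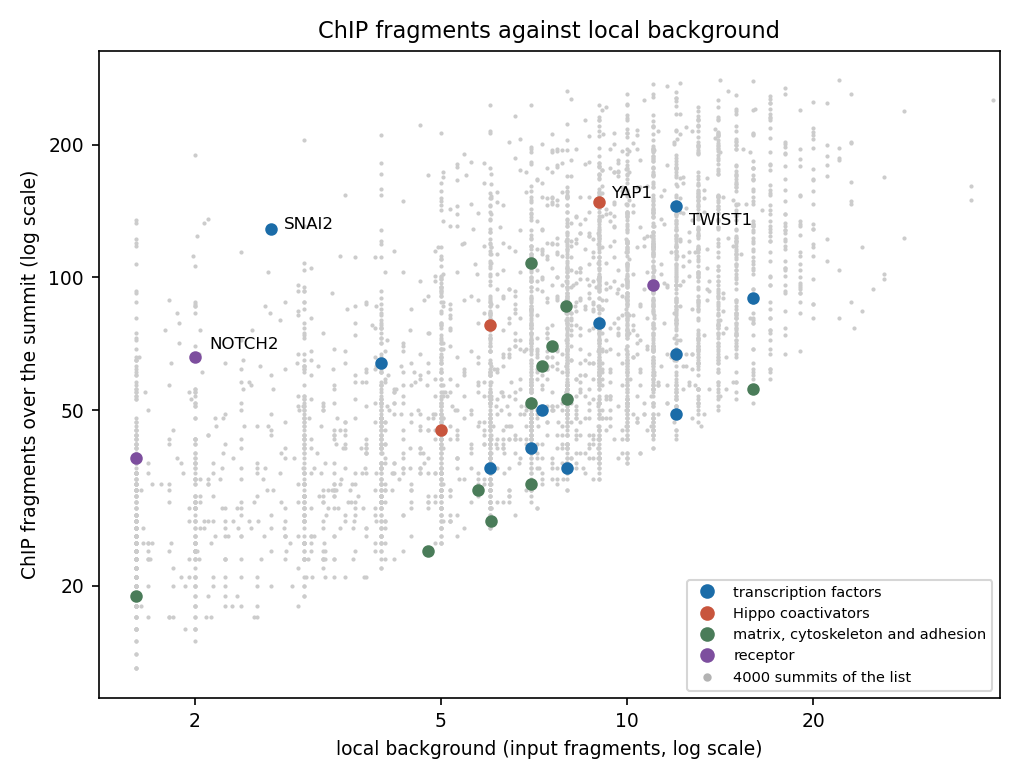
ChIP fragments over each summit against the local background in input fragments, both on log scales, for the 29 summits (coloured by role) and 4000 summits drawn from the list (grey). The SNAI2 summit and the NOTCH2 summits of high fold sit at low background, whereas YAP1 and TWIST1 reach similar or larger fragment numbers at a higher background.

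At the 7 loci with a known strand, 9 of 20 summits, or 45.0% (95% exact interval 23.1 to 68.5), lay within 2 kb of the gene start. These zones made up 3.13% of the 7 windows. The same share over the whole list was not computed, because no hg19 gene starts were used, so the 45.0% cannot be called particular to these loci. The 9 summits belonged to 5 genes: VIM with 3, FN1 and CD44 with 2 each, and YAP1 and NOTCH2 with 1 each. PRRX1 and WWTR1 had none. Starts were taken as 10 kb inside a window given in whole kb, with a flank of only about 10 kb, so they are approximate and mark the outermost start. The implied gene length was 219 kb against 207.6 kb in RefSeq at WWTR1, and 75 against 76.7 kb at PRRX1. Distances from a start carry this error, and summits near the 2-kb limit could fall on either side of it. With SNAI2 and TWIST1 read as minus-strand genes, the count was 13 of 29.

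At the 7 loci with a known strand, fold enrichment near a start was about that of the other summits. The median near starts was 5.0 (n = 9) and that of the 11 farther summits 4.98. The strongest of the 20 by fold, at NOTCH2, was among the farther ones. Median ChIP fragments were 63 and 49, and median backgrounds 7.56 and 6.0. Backgrounds ranged from 4.76 to 11.0 near starts and from 1.61 to 16.0 farther away, so they overlapped, and 3 VIM summits counted as farther lay only 2.56 to 2.77 kb from the start. SNAI2 and TWIST1 were left out of these values. Read as minus-strand genes, they would add folds of 22.88, 8.41, 7.23 and 3.45 near starts. Farther away they would add 3.99, 3.41, 2.75, 5.17 and 3.53. Medians on that reading were not computed, and the near-start summits would then include the one of highest fold among all 29, at SNAI2.

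Assignment to a gene rests on the window alone. In RefSeq's GRCh38 table VIM-AS1 overlaps VIM, ATIC and FN1-DT overlap FN1, and YAP1-DT overlaps YAP1. LOC124901597 overlaps TWIST1, and SNORD164 and CD44-AS1 overlap CD44. RNU6-1098P, WWTR1-IT1 and WWTR1-AS1 overlap WWTR1. Where along each gene the overlap falls was not placed, so summits at these loci were not given to a single gene. Just beyond 3 windows stood 4 summits with more ChIP fragments than any inside the 9. They were at 216176803 (246 fragments, fold 11.34), 38.2 kb below the FN1 window, at 149470330 (214 fragments, fold 9.88), 6.3 kb above the WWTR1 window, and, below the VIM window, at 17243653 (198 fragments, fold 8.00), 16.3 kb away, and at 17243359 (162 fragments, fold 13.11). The protein-coding genes next to VIM and WWTR1 on those sides are TRDMT1 and COMMD2. These summits were picked out after their values were seen. The summit nearest outside the other windows was 13.2 kb away at YAP1 and 15 kb at NOTCH2, with folds of 4.51 and 6.37.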

How the data were processed

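MYCN ChIP and input were sequenced from 7 samples. Per the submitters' processing notes, MACS2 2.1.1 was used on hg19, with STAR 2.5.1b, Picard, SAMtools 1.3.1 and deepTools 2.2.4. Their settings, and how the 2 ChIP samples of a state were combined, are not stated in the labels. The deposited peak list gives, per summit, a fold enrichment (a ratio), −log10 p and q values and a score that is 10 times −log10 q. Read counts were not used here. The number of ChIP fragments and the local background were solved from fold and p by the relations MACS2 uses. In these, ChIP fragments are multiplied by a scale to reach the input depth, and 1 is added to both values before the ratio. With a scale of 0.641 this matched all 64657 summits within 0.0005, after a check on simulated data. At none of the 29 summits (0) did more than 1 number fit. Poisson and exact binomial intervals are at 95% and cover only the error of counting; without molecular identifiers, reads may repeat molecules.

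Windows were taken as given. Strands and promoters came from RefSeq promoters on GRCh38.p14, which matched 7 of the 9 genes. Gene lengths and neighbours came from the RefSeq gene list, which held all 9. Exons, introns and other genes of the pathway were not placed. With 1 list there is no test. All 9 genes are named, with every summit given. The genes, their roles and the comparisons were chosen with earlier results of these data known. Alternatives covered q and fold thresholds, intervals in place of summits, window size, overlap and each locus left out. Python 3.11.15, numpy 2.4.6, pandas 2.3.3, scipy 1.17.1 and matplotlib 3.10.9 were used.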

Additional observations from a re-analysis of the deposited data

How the results depend on the processing

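No paired analysis was possible because both ChIP samples went into 1 peak list, and no replicate could be left out. The 29 summits became 16 at a −log10 q threshold of 10, to 14 with a fold of at least 5 and to 18 with windows shortened by 10 kb at each end. Leaving out 1 locus at a time gave 22 to 28 summits and a density ratio of 1.12 (without TWIST1) to 1.80 (without WWTR1). The density ratio was 0.969 with windows lengthened by 50 kb and 1.11 with shortened windows. With only the strongest summit of each interval it was 1.55 in the windows as given. It was 1.09 with that and shortened windows together, a setting chosen after seeing the data. The median fold moved from 4.98 to 6.74 at a −log10 q threshold of 10, which removes weak summits by construction. The 2 summits with a fold of at least 10 became 6 at a threshold of 8, 4 with windows lengthened by 50 kb and 1 with shortened windows, which drop SNAI2. The 9 summits within 2 kb of a start became 5 with a fold of at least 5, and were 6 within 1 kb and 13 within 5 kb. Reading SNAI2 and TWIST1 as minus-strand genes was added after seeing the data and gave 13. The fewest ChIP fragments at any of the 29 summits were 19, and the fewest in the list 13. Weaker sites may be unlisted.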
